A study of Mus musculus with 6 samples.

Results

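Long noncoding RNAs are transcripts that are processed much like messenger RNAs but carry no recognised protein, and the most abundant ones were described here in cultures labelled as mouse osteocytes. The members were chosen by their measured level: of the 10525 autosomal lncRNA genes in the count table that were not among 8 named imprinted transcripts, the 150 with the highest mean share of counts over all 6 libraries were taken, out of 56748 genes of every kind. Primary osteocytes, the cells embedded in bone matrix, were isolated from long bones, cultured for 7 days and then stimulated in 2 steps of 3 h each, first with 10 ng/mL of LPS, a bacterial activator of Toll-like receptor 4, and then with the inflammasome activator aluminum hydroxide, of which 20 µg/mL were used. The methods describe isolation from 7-week-old C57BL/6 mice. Libraries came from 3 WT cultures and from 3 cultures labelled cKO, taken from mice with floxed Gsdmd alleles and a Cre recombinase driven by the Dmp1 promoter. Gsdmd encodes the pore-forming protein of pyroptosis. All 6 cultures were stimulated, so each difference below is one between the 2 labelled groups under stimulation, and no source states whether replicates came from separate animals.

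Several of these RNAs have well-studied roles. Malat1 and Neat1 are nuclear RNAs transcribed from neighbouring genes, Malat1 residing in nuclear speckles and Neat1 forming the scaffold of paraspeckles. Norad is a cytoplasmic RNA that binds Pumilio proteins through repeated short elements. Other genes of this class are kept mainly as hosts: small nucleolar RNAs (snoRNAs), which guide the modification of ribosomal RNA, are cut from their introns, and microRNAs are cut from the primary transcript. Many more lie on the strand opposite a protein-coding gene.

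Gsdmd itself was measured at 13.5, 14.1 and 14.1 counts per 1000000 (CPM, scaled by TMM as all CPM values here) in the WT libraries and at 21, 23.6 and 23.0 in the libraries labelled cKO, which runs against the label, so directions below rest on the labels alone. Xist was at 0 to 4 counts in the WT libraries and at 44817 to 51216 counts in those labelled cKO, so the groups also differed in the sex of the source mice. The summed level of 14 macrophage markers was 1175 to 1325 CPM in WT and 6315 to 6638 CPM in the libraries labelled cKO. Of these 14 of 14 were higher, beside 20.1% higher and 19.2% lower among all genes tested. Markers of other cell types differed too. Of 4 tested chondrocyte markers 3 were higher and 1 lower, and Acan had a mean of 0.12 CPM in WT and 20.2 CPM in the libraries labelled cKO. Of 6 tested osteoblast markers 2 were higher and 4 lower, and of 5 endothelial markers, all low in level, 1 was higher and 4 lower. Of 10 osteocyte markers, 4 were high enough to be tested, of which 0 were higher and 2 lower. Sost and Dkk1 had 0 counts in every library, and Dmp1, whose promoter drives the Cre, had 0 to 6 counts. Mepe had 0 to 2 counts, Phex 2 to 22 and Fgf23 0 to 34. Most of these markers thus did not bear out the labelled cell type. The part of these differences in the results below was not tested, and sex, genotype and cell composition cannot be told apart in this design. In bulk RNA a change in the number of cells and a change in RNA per cell cannot be separated either. Library totals were 39566835 to 49734046 counts.

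The mature microRNAs carried by the host members are shown first because they are the functional products of those genes. They were copied from RefSeq on GRCm38.p6, in which 10 of the 11 microRNA genes lying inside members were found, and capitals mark the seed, bases 2 to 8 from the 5′ end, which pairs with targets.
miR-100-5p in Mir100hg: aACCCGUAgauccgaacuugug
miR-125b-5p in Mir100hg: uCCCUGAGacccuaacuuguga
miR-22-3p in Mir22hg: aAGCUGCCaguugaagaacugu
miR-199a-5p in Dnm3os: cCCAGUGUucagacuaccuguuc
miR-214-3p in Dnm3os: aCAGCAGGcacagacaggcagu
miR-15a-5p in Dleu2: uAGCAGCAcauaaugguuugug
miR-16-5p in Dleu2: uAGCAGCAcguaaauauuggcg
Only miR-15a-5p and miR-16-5p shared a seed among these mature forms, and 10 of the 1679 mature RNAs of that RefSeq table carry it. The host genes, not the mature RNAs, were measured: mature microRNAs are generally too short for such libraries, and the microRNA genes inside members held 0 to 2 counts over all 6 libraries together.

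Together the 150 members took 0.490%, 0.470% and 0.429% of all counts in the WT libraries and 0.479%, 0.468% and 0.479% in the libraries labelled cKO. The groups overlapped, and the difference between the means of 0.463% ± 0.031 and 0.475% ± 0.0061 (SD, n = 3 each) did not pass (two-sided exact permutation test, p = 0.8, where 0.1 is the smallest p that 3 libraries against 3 can give). All 11288 lncRNA genes together held 0.717% ± 0.052 in WT and 0.880% ± 0.016 in the libraries labelled cKO, with no overlap between the groups and p = 0.1 in the same exact test. Most of this difference was Xist, which is X-linked and so no member and held 0.113% to 0.117% of all counts in the libraries labelled cKO: without it the lncRNA genes held 0.658% to 0.757% in WT and 0.749% to 0.778% in the other group, with overlap (exact permutation test, p = 0.2). Leaving Xist out, the members made up 63.9% to 65.2% of lncRNA counts in WT, and for the libraries labelled cKO this was 61.6% to 62.6% (53.7% to 54.4% with it). Abundance was steep: Malat1 alone held 19.1% to 22.5% of the members' counts, the first 10 genes 55.2% to 57.2% and the first 50 genes 81.0% to 82.4%. Mean levels ran from 998 CPM for Malat1 to a median of 10.1 CPM and a lowest value of 5.54 CPM.

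**Figure D1:**
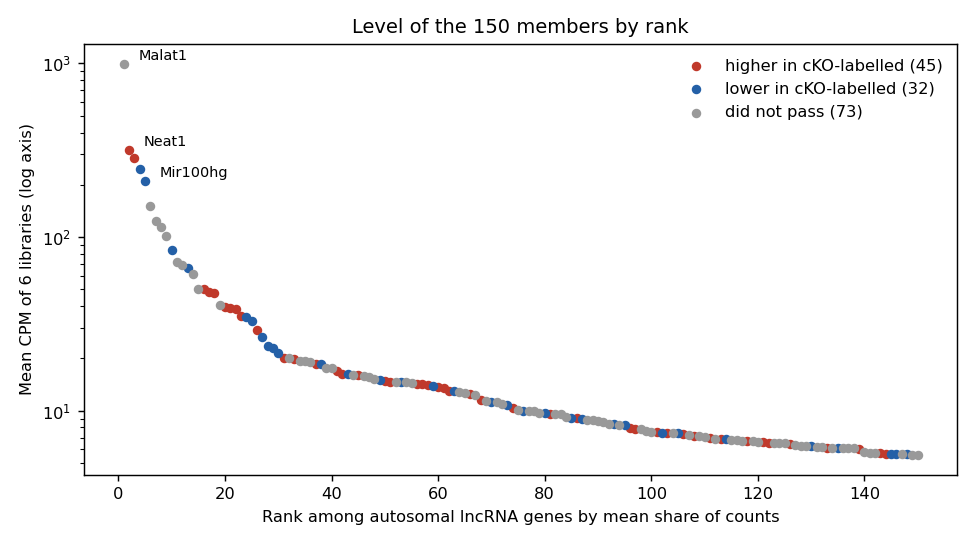
Mean level of each of the 150 members in CPM (log axis) against its rank by mean share of counts, coloured by the result of the genotype test. Levels fell from 998 CPM at rank 1 to 5.54 CPM at the lowest member, and higher and lower genes were spread over the ranks.

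The cut at 150 fell in a flat stretch of this curve. Gm49797 and ENSMUSG00000120873, the last inside, averaged 5.58 and 5.53 counts per 1000000 of the library total, and ENSMUSG00000120382 and 9330133O14Rik, the first outside, averaged 5.53 and 5.48. Ranking on the WT libraries alone would have kept 138 of the members and ranking on the libraries labelled cKO alone 137. Scaled by gene length, Gm29233 came first at 171 CPM per kb with an annotated length of 281 bases, followed by Malat1 at 143 CPM per kb and Gm41724 at 131 CPM per kb, and 81 of the 150 members would also rank among the first 150 on this scale. In the GENCODE M39 annotation of the same genome build, 147 members are lncRNA genes, ENSMUSG00000120992 and ENSMUSG00000120166 are protein-coding, and B930095G15Rik is not listed.

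All 150 members had enough counts to be tested. In the libraries labelled cKO, 45 of them were higher and 32 lower at an adjusted p below 0.05, that is 30.0% and 21.3%, beside 20.1% higher and 19.2% lower among all 17146 genes tested. The balance of directions depended on which genes were taken: ranked over the WT libraries, the first 150 held 33 higher and 37 lower, ranked over the libraries labelled cKO 55 and 25, and the 68 members that overlap no protein-coding gene held 12 higher and 19 lower. The 12 members that would not rank among the first 150 in WT were all called higher, and of the 13 that would not in the libraries labelled cKO 7 were called lower. Every library labelled cKO lay above every WT library for 51 members and below every one for 37, against 25.3% and 23.9% of all genes tested. Changes were mostly small: 5 members were higher and 6 lower by at least 2-fold, beside 6.56% higher and 4.64% lower of all genes. The median log2 fold change of the members was 0.02, that of all genes tested 0.01 and that of the 1804 tested lncRNA genes outside the 150 was 0.20. Among those other lncRNA genes 12.3% were higher and 4.99% lower. By at least 2-fold 8.37% of them were higher and 3.66% lower, against 3.33% and 4% of the members. Their median size of change was also larger, at 0.46 on the log2 scale against 0.32 for the members. The members have higher counts by selection, so the shares called cannot be compared as a strength of response. Members varied little among replicates, with a median coefficient of variation of 10.5% in WT and 8.29% for the libraries labelled cKO.

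Neat1 and Norad, at ranks 2 and 3 by abundance, were higher in the libraries labelled cKO, 1.22-fold and 1.10-fold. Neat1 (ENSMUSG00000092274, chr19:5874736-5895898, minus strand, GRCm39 as all positions of genes here) was at 321, 286 and 255 CPM in WT and at 353, 354 and 341 CPM in the libraries labelled cKO. The groups did not overlap, and the log2 fold change was 0.28 ± 0.06 (SE, adjusted p = 0.0010). Norad (ENSMUSG00000102869, chr2:156229980-156234921, minus strand) was at 268, 274 and 274 CPM in WT and at 298, 294 and 308 CPM in the libraries labelled cKO, a tight and non-overlapping difference of 0.14 ± 0.04 on the log2 scale (adjusted p = 0.0080). Its adjusted p was 0.064 without the first WT library and 0.054 without the third library labelled cKO. Malat1 (ENSMUSG00000092341, chr19:5845717-5852704, minus strand), which lies next to Neat1, was at 1102, 933 and 838 CPM in WT and at 1068, 1019 and 1030 CPM in the libraries labelled cKO. These ranges overlapped and the log2 fold change of 0.12 ± 0.07 did not pass (adjusted p = 0.18). Without the first WT library, the highest of the 6, it was 0.22 with an adjusted p of 0.0016.

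Both nuclear RNAs are known to end, after cutting at a tRNA-like structure, in a triple helix in which an A-rich tract pairs with upstream U-rich stretches. These stretches were read from the genome on the transcribed strand and are shown because they define the ends of the most abundant pair. Capitals mark the T-rich and the A-rich stretch.
Neat1, chr19:5874736-5874788: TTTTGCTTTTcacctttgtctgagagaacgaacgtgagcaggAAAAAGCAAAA
Malat1, chr19:5846010-5846055: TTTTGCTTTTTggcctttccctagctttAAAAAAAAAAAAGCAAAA
In Neat1 the A-rich tract was the last sequence of the annotated gene, whereas the annotated Malat1 gene ran on for another 293 bases. Of 15 tested genes of the nuclear exosome and of 3′ end processing, 1 was higher (Zcchc8, log2 fold change 0.19, adjusted p = 0.041) and 0 were lower. Of all genes tested 20.1% were higher and 19.2% lower. Elac2, the nuclear tRNA 3′ end nuclease, had a log2 fold change of -0.15 and Mettl16, which binds the Malat1 triple helix, one of -0.03, and neither passed. Among 20 paraspeckle proteins 2 were higher and 4 lower, against 20.1% and 19.2% of all genes tested, so the list did not stand out by its counts. The higher ones were Hnrnph3 (0.41 ± 0.12, adjusted p = 0.0082) and Dazap1 (0.26 ± 0.07, adjusted p = 0.0054). Nono (-0.16 ± 0.04) and Pspc1 (-0.30 ± 0.08), a pair of related RNA-binding proteins of the paraspeckle core, were lower, as were Matr3 and Smarca4. The remaining core protein Sfpq, at 0.09 ± 0.05, did not pass (adjusted p = 0.14).

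The repeated Pumilio elements of Norad are its best known feature. The 8-letter form TGTANATA was found 11 times in the 4945 bases of transcript Norad-202, on the transcript strand only, while 4 copies lay in the longest Neat1 transcript and 8.74% of 32880 annotated lncRNA genes had at least 1 in their longest transcript. Only 2 of those lncRNA genes, Norad included, had as many as Norad. Elements with 11 bases on either side are shown at 3 positions of Norad-202, with the element in capitals.
Norad-202, bases 1534 to 1563: actgactgctgTGTATATAgtggacaacag
Norad-202, bases 1840 to 1869: tgtgtgtatacTGTATATAatggacaaata
Norad-202, bases 2765 to 2794: cagtactactaTGTATATAggggacaaatt
Each of these 3 elements, shown for this reason, was followed after a pair of bases by the letters GGACAA, as were 4 of the 11 elements in all.

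AI506816 and Mir100hg, at ranks 4 and 5 by abundance, were lower in the libraries labelled cKO, 1.36-fold and 1.35-fold. AI506816 (ENSMUSG00000105987, chr5:23903294-23917684, minus strand), a gene that holds 1 snoRNA gene, was at 272, 272 and 304 CPM in WT and at 205, 214 and 204 CPM in the libraries labelled cKO. The log2 fold change was -0.44 ± 0.05 (adjusted p = 5.5e-07). Mir100hg (ENSMUSG00000074415, chr9:41238373-41628290, plus strand), the host of miR-100, let-7a-2 and miR-125b-1, was at 260, 241 and 225 CPM in WT and at 193, 181 and 165 CPM in the libraries labelled cKO, without overlap (-0.43 ± 0.06, adjusted p = 1.1e-05). ENSMUSG00000120992, which starts 570 bases from the valyl-tRNA synthetase gene Vars on the other strand, was also lower, at 91.6, 92.5 and 97.7 CPM in WT and 71.7, 81.7 and 71.1 CPM in the libraries labelled cKO (-0.33 ± 0.06, adjusted p = 0.00015), and Vars itself had a log2 fold change of -0.22 ± 0.05 (adjusted p = 0.0029).

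The 4 other members among the first 10 did not pass. Gm42047 was at 146 to 159 CPM in WT and 146 to 153 CPM in the libraries labelled cKO (-0.06 ± 0.05, adjusted p = 0.34). Oip5os1, also known as Cyrano, an RNA that binds and destroys miR-7, was at 118 to 125 CPM in WT and 126 to 128 CPM in the libraries labelled cKO, where the lowest of the latter lay just above the highest WT library (0.08 ± 0.04, adjusted p = 0.18). Gm15270, antisense to the matricellular growth factor gene Ccn2, was at 89.3 to 123 CPM and 110 to 132 CPM (0.18 ± 0.09, adjusted p = 0.11), but without the second WT library its log2 fold change was 0.29 with an adjusted p of 0.0061. Apol7d, annotated antisense to the fibronectin gene Fn1, was at 85.5 to 115 CPM and 96.8 to 110 CPM, a log2 fold change of -0.0046 (SE 0.08, adjusted p = 0.97).

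The member with the lowest log2 fold change of the 150 was ENSMUSG00000121093 (chr17:21695173-21698393, plus strand), the 13th most abundant, which M39 names Gm56906 and for which no function can be given. It was at 99.5, 95.8 and 115 CPM in WT and at 29.2, 28.4 and 28.5 CPM in the libraries labelled cKO. The 3 libraries labelled cKO lay close together and far below WT, and the log2 fold change was -1.85 ± 0.06 (adjusted p = 1.5e-13). The nearest protein-coding gene, the zinc finger gene Zfp51 at 9324 bases, had a log2 fold change of -0.13 that did not pass (adjusted p = 0.35). 3300005D01Rik was at 12.2, 13.9 and 12.6 CPM in WT and 4.71, 4.75 and 5.28 CPM in the libraries labelled cKO (-1.39 ± 0.12, adjusted p = 3.6e-08).

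Ptgs2os2 (chr1:150034794-150040836, minus strand), transcribed 50816 bases from the cyclooxygenase-2 gene Ptgs2, was at 18.1, 22.2 and 19.8 CPM in WT and at 9.58, 8.58 and 9.40 CPM in the libraries labelled cKO (-1.13 ± 0.10, adjusted p = 5.9e-08). Ptgs2 moved in the same direction, by -0.63 ± 0.05 (adjusted p = 4.1e-08). Of the 9 lncRNAs listed as known from LPS-treated macrophages or inflammation, 7 could be tested. Of these 2 were higher and 3 lower, against 20.1% and 19.2% of all genes tested. Beside Neat1, the higher one was AW112010, an interferon-induced transcript outside the 150, at 3, 54 and 6 counts in WT and 74, 66 and 64 counts in the libraries labelled cKO (1.83 ± 0.60, adjusted p = 0.022). Its second WT library lay close to the other genotype. Beside Ptgs2os2 and AI506816, the lower one was Ptgs2os (-0.91 ± 0.19, adjusted p = 0.0010), which is also outside the 150. Mir155hg, the host of miR-155, had a log2 fold change of -0.65 ± 0.44 and did not pass.

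**Figure D2:**
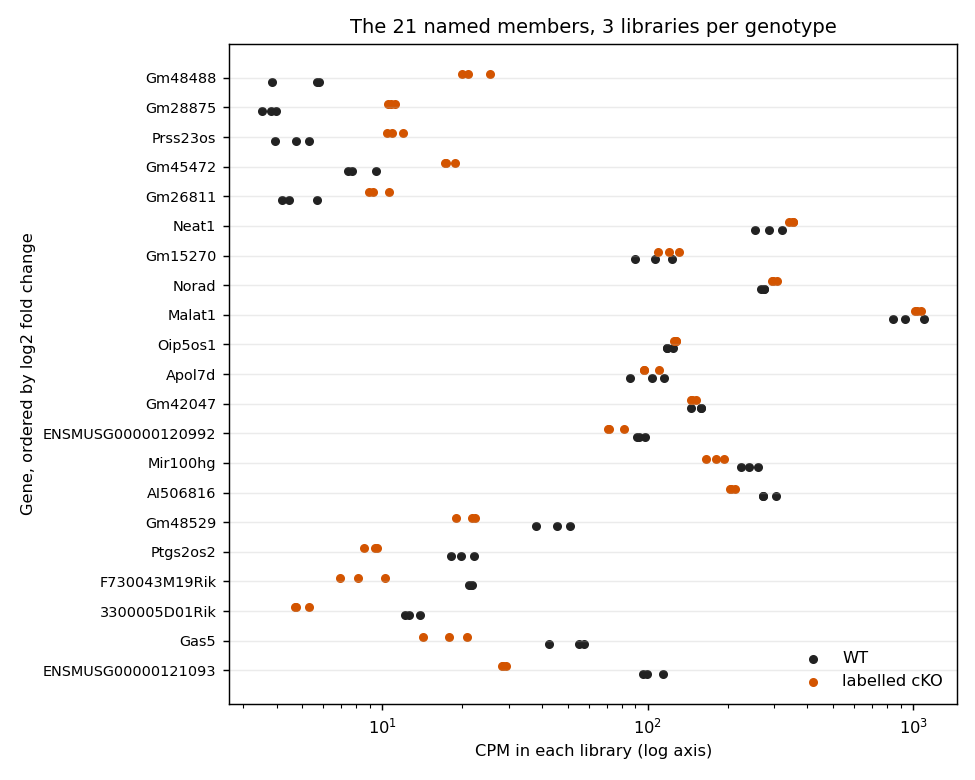
CPM of the 21 members chosen for their rank or their genotype test in each of the 3 WT libraries (black) and the 3 libraries labelled cKO (orange), on a log axis and ordered by log2 fold change. The 5 genes at the top and the 6 at the bottom changed at least 2-fold, with no overlap between genotypes in any of these 11. They were chosen by adjusted p and size of change, so the lack of overlap largely follows from the choice. Of all genes tested 25.3% were higher and 23.9% lower without overlap.

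Among the 12 members that host snoRNA genes, 5 were lower in the libraries labelled cKO, 0 were higher and 7 did not pass. Of all genes tested 19.2% were lower and 20.1% higher. The median log2 fold change of these hosts was -0.25 against 0.01 for all genes tested. Gas5 (ENSMUSG00000053332, chr1:160861992-160866116, plus strand), a growth-arrest gene whose introns hold 10 annotated snoRNA genes and whose spliced RNA is known to be destroyed by nonsense-mediated decay, stood apart. It was at 55.3, 57.4 and 42.6 CPM in WT and at 14.3, 17.9 and 20.8 CPM in the libraries labelled cKO. The lowest WT library was above every library labelled cKO, and the log2 fold change was -1.55 ± 0.12 (adjusted p = 7.0e-09). Zfas1 (-0.50 ± 0.12, adjusted p = 0.0026), 2410006H16Rik (-0.35 ± 0.10, adjusted p = 0.0086), 1110038B12Rik (-0.27 ± 0.09, adjusted p = 0.027) and AI506816 above were the others that were lower. Snhg12 (-0.42 ± 0.17, adjusted p = 0.054), Snhg18 (-0.23), Snhg17 (-0.16), Snhg1 (-0.15), Snhg6 (-0.11), Snhg15 (-0.03) and Snhg5 (0.10) did not pass. These hosts held 0.0470% to 0.0498% of all counts in WT, and for the libraries labelled cKO 0.0359% to 0.0371%.

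Of 12 core proteins of snoRNA particles, 2 were lower and 0 higher, which for the lower ones is near the 19.2% of all genes tested: the pseudouridine synthase Dkc1 (-0.29 ± 0.08, adjusted p = 0.0082) and the assembly factor Nolc1 (-0.18 ± 0.05, adjusted p = 0.0098), while fibrillarin (Fbl) had a log2 fold change of -0.05 and did not pass. Of 14 targets of p53, 9 were lower and 1 higher, against 19.2% and 20.1% of all genes tested: the lower ones included the cyclin gene Ccng1 (-0.77 ± 0.04), the receptor gene Eda2r (-0.68 ± 0.07) and the cell-cycle inhibitor Cdkn1a (-0.25 ± 0.04), whereas Btg2 was the higher one (0.34 ± 0.06).

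snoRNA host genes are known for starting transcription in a pyrimidine tract, the mark of messages whose translation follows growth signals. A run of at least 6 letters C or T that touched positions -5 to 10 around a RefSeq start was present in 9 of the 11 snoRNA hosts with a start window, against 28.5% of all genes with one and 45.7% of the 70 members with one. This window was set after the sequences had been seen. The windows of 30 bases before and 30 after the start (GRCm38.p6) are shown for Gas5, the snoRNA host with the lowest log2 fold change, and for 3 others, with the run in capitals and base 31 as the start.
Gas5, the second of its starts, chr1:161035136-161035195: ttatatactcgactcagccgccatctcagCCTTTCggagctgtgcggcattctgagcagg
2410006H16Rik, chr11:62602847-62602906: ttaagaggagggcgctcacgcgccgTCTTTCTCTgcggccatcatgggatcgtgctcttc
Snhg12, chr4:132308648-132308707: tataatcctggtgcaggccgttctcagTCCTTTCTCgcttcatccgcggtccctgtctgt
Snhg1, chr19:8723457-8723516: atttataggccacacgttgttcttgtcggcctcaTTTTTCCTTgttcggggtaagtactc
A run that touched these positions did not always cover the start itself: in Snhg1 it began only at base 5 counted from the start. Hosts with such a run included members that were lower and members that did not pass, such as Snhg1.

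**Figure D3:**
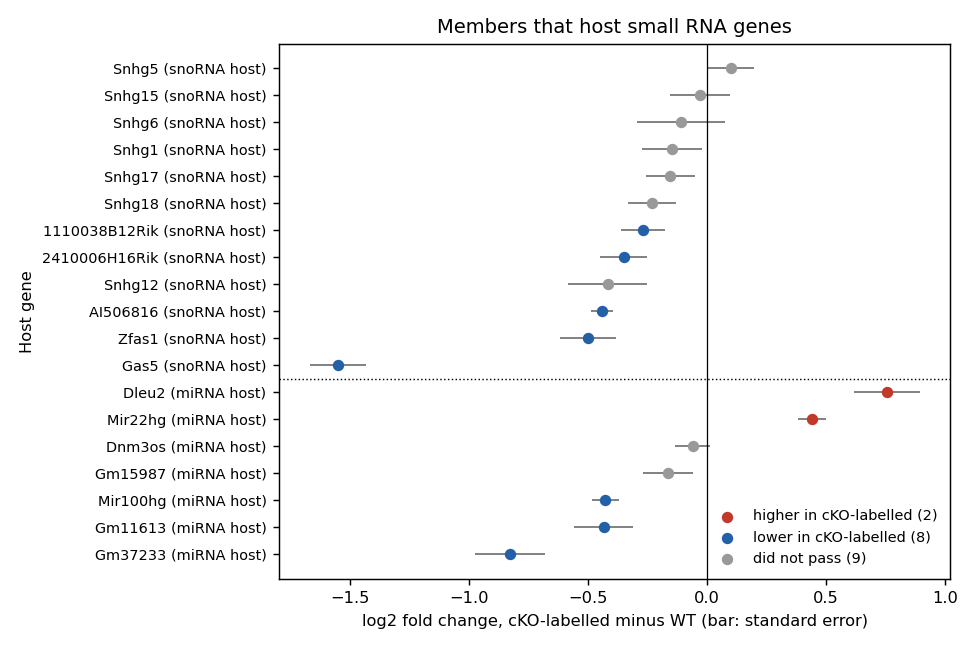
log2 fold change (libraries labelled cKO minus WT, with standard errors) of the 12 snoRNA hosts and 7 microRNA hosts among the members. No snoRNA host was called higher and Gas5 lay at -1.55, while the microRNA hosts lay between -0.83 and 0.76.

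The 7 microRNA hosts split: 2 were higher, 3 lower and 2 did not pass, beside 20.1% higher and 19.2% lower of all genes tested. Mir22hg, from which miR-22 is cut, was at 44.6, 40.9 and 42.6 CPM in WT and 57.5, 61.9 and 54.4 CPM in the libraries labelled cKO (0.44 ± 0.06, adjusted p = 1.0e-05). Dleu2, the host of the pair with the shared seed, was at 5.53, 5.54 and 4.35 CPM in WT and at 8.98, 8.22 and 8.92 CPM in the libraries labelled cKO (0.76 ± 0.14, adjusted p = 0.00025). Neither overlapped between the genotypes, but 25.3% of all genes tested were also higher without overlap. The WT levels of Dleu2 were near or below 5.54 CPM, the lowest mean level of any member. Its place among the members thus leans in part on the libraries labelled cKO, in which it was higher. Mir100hg was described above, and the other lower hosts were Gm37233 (-0.83 ± 0.15, adjusted p = 0.00019) and Gm11613 (-0.44 ± 0.12, adjusted p = 0.0098). Dnm3os, the host of miR-199a and miR-214, known from skeletal development, was at 37.2 to 46.3 CPM in WT and 38.1 to 41.8 CPM in the libraries labelled cKO, and its log2 fold change of -0.06 ± 0.07 did not pass (adjusted p = 0.56). Of 12 genes of microRNA biogenesis 6 were higher and 2 lower, against the same 20.1% and 19.2% of all genes tested. The nuclear nuclease Drosha (-0.30 ± 0.06, adjusted p = 0.00044) and Ago2 (-0.24 ± 0.04, adjusted p = 0.00011) were lower, and the cytoplasmic nuclease Dicer1 (0.16 ± 0.05, adjusted p = 0.016), Ago3, Ago4, Tarbp2, Prkra and Ddx5 were higher.

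Position beside protein-coding genes divided the members further. Of the 150, 74 overlapped a protein-coding gene on the opposite strand, 8 overlapped one on the same strand only, 19 started head to head with one within 2000 bases and 49 were separate. Among all genes tested 20.1% were higher and 19.2% lower. Of the antisense members 30 were higher and 11 lower, that is 40.5% and 14.9%, with a median log2 fold change of 0.13. Of the head-to-head members 2 were higher and 9 lower, that is 10.5% and 47.4%, with a median of -0.23. Of the separate members 10 were higher and 10 lower, 20.4% each and so at the share of all genes. The 19 snoRNA and microRNA hosts are spread over these classes and are counted in them too.

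**Figure D4:**
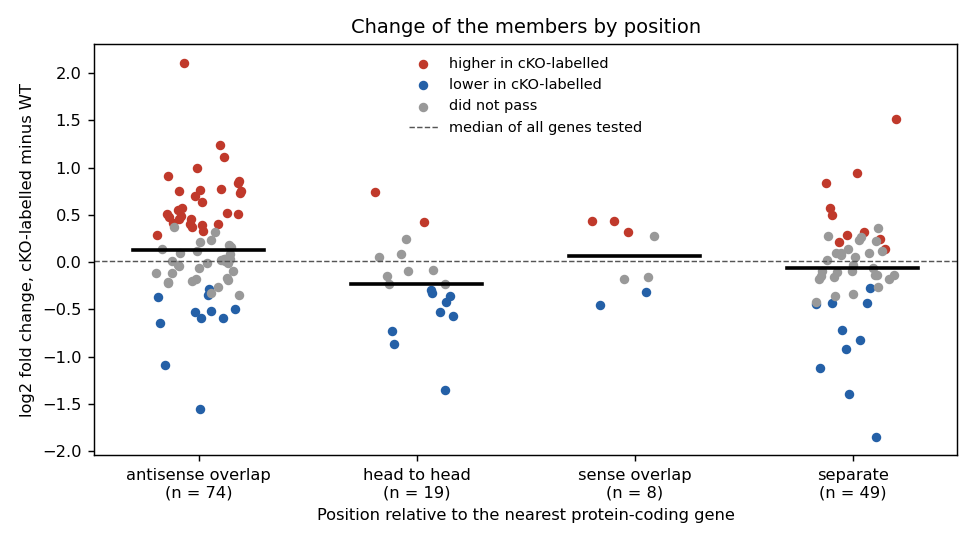
log2 fold change of each of the 150 members by its position relative to the nearest protein-coding gene; black bars are class medians and the dashed line is the median of all genes tested (0.01). The medians were 0.13 for antisense overlap, -0.23 for head to head, 0.06 for sense overlap and -0.06 for separate members.

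Head-to-head members shared the direction of their neighbour wherever both passed, which was the case in 6 of the 19 pairs. This is not particular to the class: such pairs agreed in 8 of 11 cases for separate, 15 of 23 for antisense and 2 of 3 for sense members. Most called genes on either side of the head-to-head pairs were lower (9 members and 7 neighbours, against 2 and 2 higher), which by itself favours agreement. F730043M19Rik (chr12:33161710-33197611, minus strand), which starts 81 bases from Atxn7l1, was at 21.6, 21.9 and 21.3 CPM in WT and 6.94, 10.3 and 8.10 CPM in the libraries labelled cKO. Its log2 fold change was -1.36 ± 0.12 (adjusted p = 3.6e-08), and that of Atxn7l1 -0.36 ± 0.07 (adjusted p = 0.00062). Gm20544 and Smad7, an inhibitor of TGF-beta signalling, changed by -0.87 ± 0.12 and -0.53 ± 0.05, and Gm17501 and the matricellular gene Ccn1 by -0.30 ± 0.11 and -0.48. In other pairs the lncRNA alone passed: Gm20186 changed by -0.57 ± 0.09 (adjusted p = 8.5e-05) 46 bases from Lsm8 (-0.11, adjusted p = 0.39), and AI480526 by 0.74 ± 0.14 (adjusted p = 0.00026) 527 bases from Setd1b (0.06, adjusted p = 0.43). Across the 19 pairs the 2 changes had a Pearson correlation of 0.47 and a Spearman correlation of 0.58, a description across genes measured in the same libraries.

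Starts of these head-to-head members were rich in CpG. In the 300 bases from 250 before to 50 after the annotated start, 89.5% of them held at least 10 CpG dinucleotides, beside 58.7% of all members, 73.8% of protein-coding genes tested and 51.8% of lncRNA genes tested. The region between F730043M19Rik and Atxn7l1 is shown because both genes start in it, on the plus strand of chr12:33197502-33197801 with CpG in capitals. Transcription of the lncRNA starts leftwards at base 110 and that of Atxn7l1 rightwards at base 191.
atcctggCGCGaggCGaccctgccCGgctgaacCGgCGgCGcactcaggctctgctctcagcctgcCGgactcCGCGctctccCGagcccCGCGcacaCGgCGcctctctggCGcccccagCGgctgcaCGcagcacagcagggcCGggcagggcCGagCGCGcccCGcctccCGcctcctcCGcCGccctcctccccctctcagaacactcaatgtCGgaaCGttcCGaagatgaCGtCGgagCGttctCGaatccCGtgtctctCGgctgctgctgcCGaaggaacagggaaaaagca
It held 36 CpG dinucleotides and 70.7% G or C. In the same windows, searched on both strands, TATAAA was present in 12% of members and 7.97% of protein-coding and lncRNA genes tested, the AP-1 type site TGANTCA in 2.67% and 5.55%, and GGGANTTCC, a form bound by NF-kappaB, in 1.33% and 2.21%. A match is a description of letters only.

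The antisense members fell into 2 kinds by their level relative to the partner, and the split at 5% was set after the values had been seen. In 29 of the 74, the member's mean level was below 5% of that of the messenger RNA on the other strand. Their partners included very abundant messages, such as Fn1 with mean levels of 44856 CPM in WT and 27150 CPM in the libraries labelled cKO. Apol7d reached 0.282% of Fn1, Gm29233 0.468% of Thbs1, Gm41724 0.638% of the collagen cross-linking enzyme gene Lox and Gm15270 3.14% of Ccn2. The library kit keeps strand, but the strand setting of the counting is not stated in the sources used here, and for such genes reads of the antisense RNA and misassigned reads of the messenger RNA cannot be told apart.

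In these 29, the change of the member followed that of the partner but lay above it. The Pearson correlation of the 2 log2 fold changes was 0.93 and the Spearman correlation 0.88 (29 pairs, a description across genes that share libraries), and the member's change exceeded its partner's in 29 of 29, by a median of 0.55 on the log2 scale. Gm29233 was at 38.3, 34.4 and 34.1 CPM in WT and 63.5, 52.5 and 65.6 CPM in the libraries labelled cKO (0.77 ± 0.08, adjusted p = 2.4e-07), while Thbs1 had a log2 fold change of -0.02 (adjusted p = 0.77). Gm41724 did not pass at -0.03 ± 0.08 (adjusted p = 0.80) while Lox was lower by -0.43 ± 0.03 (adjusted p = 3.0e-09), and Apol7d did not pass while Fn1 was lower by -0.72 ± 0.03 (adjusted p = 7.4e-13). The median level of these members as a percentage of the partner was 1.67%, 1.78% and 1.29% in the WT libraries and 2.32%, 2.39% and 2.72% in the libraries labelled cKO. Every library labelled cKO was thus above every WT library in this measure.

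In the remaining 45 antisense members the relation was looser. Over the 40 with a tested partner, the correlations were 0.22 (Pearson) and 0.16 (Spearman), the member lay above its partner in 22 and below it in 18, and the median offset was 0.06. Limits of 2% and 10% in place of 5% gave 14 of 14 and 37 of 38 members above their partner. Among tested lncRNA genes outside the 150 that overlap a protein-coding gene only on the opposite strand, 595 of the 785 below 5% of the partner lay above it, with a median difference of 0.39, and 142 of 250 at 5% or more, with a median difference of 0.11. Whether members differ from these genes was not tested, and the median over all tested lncRNA genes outside the 150 was itself 0.20 on the log2 scale. Of the 29 weak antisense members 55.2% were called higher and 3.45% lower, beside 20.1% and 19.2% of all genes tested. They made up 16 of the 45 members called higher and 1 of the 32 called lower. The balance of directions over the 150 thus depends on this class, whose reads may be misassigned.

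**Figure D5:**
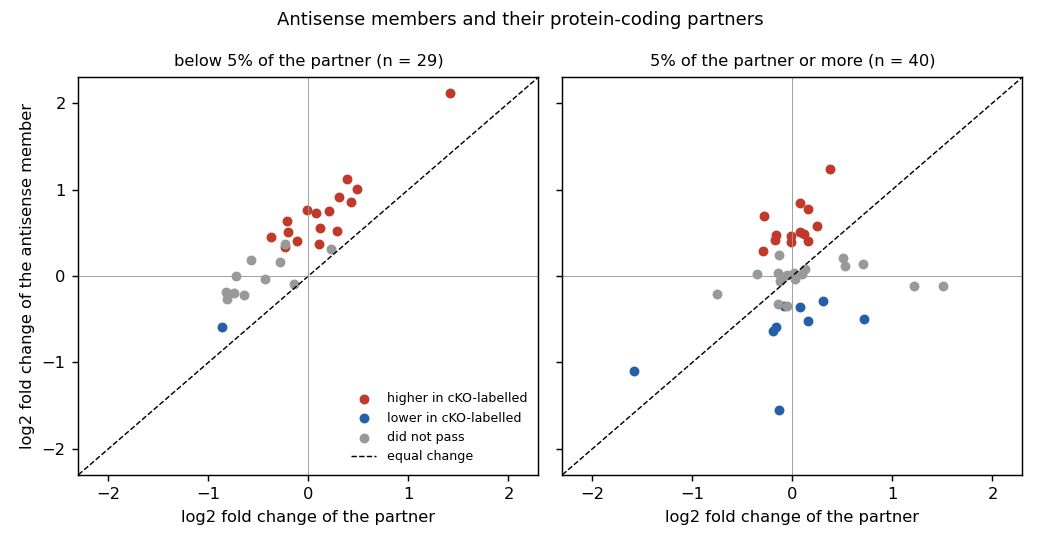
log2 fold change of antisense members against that of their protein-coding partner, for members below 5% of the partner's level (left, 29 pairs) and at 5% or more (right, 40 pairs); the dashed line marks equal change. All 29 points on the left lie above the line, and on the right 22 lie above and 18 below.

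Of the 5 members that were higher by at least 2-fold, 4 were antisense. In WT alone 4 of the 5, all but Gm45472, would not rank among the first 150, so they are members through the group in which they were high, and the count is set in part by the selection. Gm48488, opposite the growth-arrest gene Gas1 (chr13:60324496-60330676, plus strand), ranked 161 in WT and 28 in the libraries labelled cKO. It had the highest log2 fold change of the 150 and went from 5.80, 5.68 and 3.84 CPM in WT to 20.1, 21 and 25.5 CPM in the libraries labelled cKO (2.11 ± 0.14, adjusted p = 9.8e-10). Gas1 changed by 1.42 ± 0.05 and Gm48488 stood at 3.95% of its level. Gm45472, opposite the matrix metalloproteinase gene Mmp2, went from 7.44, 9.51 and 7.68 to 17.4, 17.2 and 18.9 CPM (1.12 ± 0.11, Mmp2 0.39 ± 0.04). Prss23os, opposite the serine protease gene Prss23, went from 4.73, 5.32 and 3.94 to 11.9, 10.4 and 10.9 CPM (1.24 ± 0.14, Prss23 0.37 ± 0.05). Gm26811, opposite the semaphorin receptor gene Plxna1, went from 4.2, 5.66 and 4.46 to 10.6, 9.25 and 8.89 CPM (1.00 ± 0.14, Plxna1 0.48 ± 0.05). In each of these 4 pairs both genes were higher, none overlapped between genotypes on the lncRNA side, and the lncRNA changed more than its partner. The 4 lncRNAs were chosen for being higher by at least 2-fold and their partners were not. The direction, lack of overlap and larger change on the lncRNA side were therefore set in part by that choice.

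Gm48529, opposite the smooth muscle gene Tagln (chr9:45841410-45845036, plus strand), was the antisense member other than Gas5 that was lower by at least 2-fold. It went from 45.6, 50.8 and 38.0 CPM in WT to 19, 21.8 and 22.3 CPM in the libraries labelled cKO (-1.09 ± 0.09, adjusted p = 3.3e-08), at 12.3% of the level of Tagln, which was lower by -1.58 ± 0.04. Junos, opposite the AP-1 gene Jun, was higher (0.48 ± 0.09, adjusted p = 0.00046) while Jun, at 0.12 ± 0.05, did not pass (adjusted p = 0.099). Zfas1, whose start lies 81 bases from that of the antiviral helicase gene Znfx1, was lower while Znfx1 was higher by 0.71 ± 0.06.

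Some separate members lay on the same strand just beyond the end of a protein-coding gene, where reads can also stem from an extended messenger RNA. There were 11 within 5000 bases, a class set after the coordinates had been seen. Of these, 4 were higher and 2 lower, against 20.1% and 19.2% of all genes tested. In 5 of the 11 pairs both genes were called, 3 in the same and 2 in opposite directions. Over the 11 pairs the Pearson correlation was 0.59 and the Spearman correlation -0.03. Neat1 belongs to this class, 3832 bases beyond Frmd8, and was higher while Frmd8 was lower by -0.32 ± 0.06. Gm37233 was lower while Ccdc115 was higher by 0.38 ± 0.10. Gm28875 (chr12:104891760-104892948, minus strand), the other member higher by at least 2-fold, lay 3244 bases beyond Syne3, a nuclear envelope gene. It was at 3.82, 3.97 and 3.53 CPM in WT and 10.8, 11.2 and 10.5 CPM in the libraries labelled cKO (1.52 ± 0.13, adjusted p = 2.8e-08), and Syne3 was higher by 1.33 ± 0.08. ENSMUSG00000120144, 821 bases beyond the small GTPase gene Arf6, was higher by 0.24 ± 0.07 and Arf6 by 0.21 ± 0.05. ENSMUSG00000121059, which lies inside the LPS receptor gene Tlr4 on its strand, was higher by 0.43 ± 0.11 (adjusted p = 0.0032) and Tlr4 by 0.45 ± 0.05.

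Other members lay apart from protein-coding genes or are known by name. Gm20559 and Gm13293, which carry only Gm numbers, lay 26129 and 38209 bases from a protein-coding gene. They were higher by 0.94 ± 0.10 and 0.84 ± 0.10. Pvt1, beside the oncogene Myc and itself a frequent site of rearrangement in tumours, had a log2 fold change of -0.26 ± 0.11 that did not pass (adjusted p = 0.067), while Myc was lower by -0.52 ± 0.06. Chaserr, an RNA known to restrain the chromatin remodeller gene Chd2 next to it, was higher by 0.32 ± 0.12 (adjusted p = 0.038), and Chd2 at 0.03 ± 0.06 did not pass. Gt(ROSA)26Sor, the locus widely used for transgenes, was lower by -0.36 ± 0.11 (adjusted p = 0.012). Hmga2-ps1, named as a pseudogene copy, may share reads with its parent and its value of -0.64 is uncertain for that reason.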

How the data were processed

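Bulk RNA-seq of 6 cultures labelled as osteocytes was analysed, 3 WT and 3 labelled cKO, grouped by their labels. The authors deposited raw counts per gene. Per the labels the reads were aligned with HISAT2 2.0.5 to GRCm39 and counted with featureCounts 1.55.0-p3, and the kit was directional, but the strand setting of the counting is not given in the sources used here. The deposited table also holds gene positions, lengths and biotypes. Positions of neighbouring genes were taken from it, and transcript sequences and current biotypes from GENCODE M39.

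Genes were filtered with filterByExpr, leaving 17146, and fitted with edgeR 4.0.16 (R 4.3.3; TMM scaling, quasi-likelihood test of genotype). Adjusted p values are Benjamini-Hochberg values over all genes tested, with a threshold of 0.05. As separate animals are not stated, p values measure the spread between these cultures, which may be technical. The coefficient of variation between cultures estimated in the fit was 8.36%, with 39566835 to 49734046 counts per library. Errors are SE for log2 fold changes and SD for levels. The fit was first tested on simulated data.

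The ranking used the mean of all 6 libraries, so levels and ranks are descriptions. The members and gene lists were chosen with earlier results of these data known. The rule for individually followed members took the first 10 by rank, up to 10 in each direction by p among those changed at least 2-fold, and the 5 most abundant that did not pass, 21 genes in all; members named outside it were chosen after their values were seen, as examples of a class. Members were classed by position against protein-coding genes, head to head meaning divergent starts within 2000 bases. Alternatives were RLE and unscaled libraries, other filters, DESeq2 1.42.0, limma-voom (limma 3.58.1), halved counts, a replicate block, each library left out, and other rankings. The result of a list of nonsense-mediated decay factors is not reported here.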

Additional observations from a re-analysis of the deposited data

How the results depend on the processing

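The counts of 45 higher and 32 lower members moved by less than 1.5 times under the other scalings, filters and tools, from 44 to 49 higher and from 29 to 33 lower. Ranked over WT they were 33 and 37, so that lower members outnumbered higher ones, over the libraries labelled cKO 55 and 25, and per base of gene length 53 and 22. Restricted to the 68 members that overlap no protein-coding gene, they were 12 higher and 19 lower, with 1 higher by at least 2-fold. The count of 5 higher by at least 2-fold was 10 when members were ranked per base of gene length, 1 when ranked over WT, 8 when ranked over the libraries labelled cKO and 3 for the first 100 members. Leaving out single libraries gave 36 to 44 higher, 26 to 37 lower, 4 to 6 higher and 6 to 7 lower by at least 2-fold. The difference in share of counts on the members (0.0126 percentage points) ranged from -0.00417 to 0.0260 when single libraries were left out, turning negative without WT replicate 3 at -0.00417, and was -0.00357 without Malat1 and Neat1; for all lncRNA genes (0.163) the range was 0.134 to 0.183, but without Xist, an alternative chosen after seeing the data, the difference was 0.0494 and the groups overlapped, while that of the members was 0.0132.

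With a replicate block there were 42 higher and 31 lower members, and 5 and 6 by at least 2-fold. Same-numbered libraries did not deviate together over all genes tested (correlations of -0.0055, 0.0023 and -0.010). Whether they shared a preparation is not stated, and these values cannot decide it.

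Among 294 values of the 21 followed members, 283 kept direction and side of the threshold. Norad no longer passed without WT replicate 1 or without cKO replicate 3. Malat1 and Gm15270 passed with no filter beyond 1 count (adjusted p = 0.0040 and 0.0015 in edgeR) and without WT replicate 1 or WT replicate 2, respectively. The log2 fold change of Apol7d, -0.0046, was 0.016 with library size only, 0.0030 with the replicate block, and 0.087, 0.028 and 0.025 without WT replicate 2, cKO replicate 1 and cKO replicate 2, over a range of -0.117 to 0.087 when single libraries were left out. The cause was not tested for any of these.

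With 3 libraries a genotype, an exact test of a single value could not go below 0.1. Genotype, sex of the source mice and cell composition, macrophage content included, cannot be told apart. For weak antisense members, antisense RNA and misassigned reads cannot be told apart without the strand setting. Mature microRNAs and snoRNAs were not measured.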
